A study of Homo sapiens with 4 samples.

Results

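The windows described here are 1 kb stretches of the human genome that carried less DNA methylation in 2 libraries of differentiated cells than in the library of non-differentiated cells. A window on chromosomes 1 to 22 entered with at least 3 CpGs listed in all 4 libraries and at least 100 reads summed over those CpGs in each. It was chosen when its methylation level, the methylated reads over all reads in percent, was at least 15 percentage points lower both in the DMSO library and in the EED inhibitor library than in the non-differentiated library. The DMSO and EED inhibitor levels also had to differ by less than 15 points. The windows were thus chosen by the levels of those 3 libraries, and 1191 of 2024509 windows passed, which is 0.0588%.

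The libraries came from HUDEP-2, an immortalised human line of erythroid precursors that makes adult haemoglobin, by whole-genome bisulfite sequencing. Bisulfite makes unmethylated cytosine read as T, so methylation of a CpG is read as the percentage of C. There were 4 libraries, 1 per group: non-differentiated cells without treatment, and cells differentiated with the vehicle DMSO, with an EED inhibitor or with a DNMT1 inhibitor. Differentiation took 4 days of growth and 2 days of maturation with 0.1% DMSO in all 3 of these cultures, added already during expansion. Compound names and doses were not given in the sources used here, and the labels state that both inhibitor-treated cultures raised fetal haemoglobin. All groups share 1 line and doxycycline in the medium. Since the non-differentiated cells had no DMSO, differentiation, vehicle and library cannot be told apart in what follows. With 1 library per group there was no replicate check, and no difference between conditions was tested.

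Methyl groups on CpGs are copied to new DNA strands after replication by DNMT1, the maintenance methyltransferase. When copying lags behind cell division, methylation is diluted, and late-replicating, gene-poor parts of the genome are known to lose it first in long-cultured lines, where they form partially methylated domains. Methylation is also known to fall genome-wide as erythroid cells mature, and local loss of methylation often accompanies binding of transcription factors at enhancers. EED belongs to Polycomb repressive complex, which puts a silencing mark on histone H3.

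Parts of 4 chosen windows show the kinds of sequence involved. The first lies in intron 4 of UNC13C, which encodes a protein that prepares synaptic vesicles for release, and the second in intron 4 of SVOPL; both differences remained when all libraries gave each CpG the same weight. The third lies in intron 1 of NTM, a neural adhesion protein gene, and lost most of its difference with that weighting. The fourth is the intergenic window with 54 CpGs on chromosome 22. Each is the plus strand of hg38, 5′ to 3′, and capitals mark the CpGs that had values in all 4 libraries; a cg in lower case had fewer than 10 reads in at least 1 of them or none listed.

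UNC13C window, chr15:54152001-54152300: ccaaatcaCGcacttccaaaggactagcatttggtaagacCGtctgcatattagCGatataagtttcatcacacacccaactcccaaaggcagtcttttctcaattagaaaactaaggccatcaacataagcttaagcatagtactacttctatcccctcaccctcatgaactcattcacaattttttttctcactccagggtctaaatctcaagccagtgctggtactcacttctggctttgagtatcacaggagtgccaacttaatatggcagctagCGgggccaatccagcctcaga
SVOPL window, chr7:138664233-138664532: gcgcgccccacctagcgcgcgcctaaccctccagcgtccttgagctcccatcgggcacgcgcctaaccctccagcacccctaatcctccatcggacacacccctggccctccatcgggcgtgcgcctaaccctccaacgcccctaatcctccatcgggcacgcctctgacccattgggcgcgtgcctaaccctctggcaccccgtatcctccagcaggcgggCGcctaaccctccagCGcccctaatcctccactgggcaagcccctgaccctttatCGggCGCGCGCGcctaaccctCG
NTM window, chr11:131564648-131564947: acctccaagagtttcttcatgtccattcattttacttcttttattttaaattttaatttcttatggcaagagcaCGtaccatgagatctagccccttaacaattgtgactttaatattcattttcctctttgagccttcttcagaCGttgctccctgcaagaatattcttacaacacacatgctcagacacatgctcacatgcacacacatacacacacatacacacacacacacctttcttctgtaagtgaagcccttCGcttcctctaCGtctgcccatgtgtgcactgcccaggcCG
Chromosome 22 window, chr22:30922240-30922539: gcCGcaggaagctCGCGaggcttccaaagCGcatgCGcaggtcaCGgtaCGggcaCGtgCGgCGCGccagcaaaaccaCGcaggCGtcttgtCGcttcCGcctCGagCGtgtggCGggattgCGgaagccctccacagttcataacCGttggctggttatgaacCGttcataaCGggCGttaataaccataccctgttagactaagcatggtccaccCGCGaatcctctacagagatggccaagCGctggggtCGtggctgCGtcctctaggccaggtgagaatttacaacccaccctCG

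The 300 bases of the UNC13C window hold 4 of its 5 measured CpGs, 3 of them close together near the left end. The SVOPL stretch is a tandem array of a short GC-rich unit. There 8 CpGs near its end had values in all libraries, and of 75 CpGs of the whole reference window only 11 did. The NTM stretch has 5 measured CpGs beside a run of CA repeats. The chromosome 22 stretch is the densest of the 4, with 29 measured CpGs.

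The chosen windows had intermediate methylation before differentiation. Their level in the non-differentiated library ran from 15.7% to 92%, with a median of 59.4%, against a median of 59.4% over all windows. The medians were 41.9% in DMSO and 41.0% with the EED inhibitor, against 58.2% and 57.3% over all windows. These 3 levels chose the windows, so they are a description only. The DMSO difference from the non-differentiated level lay between −28.7 and −15 points with a median of −16.9. The EED inhibitor difference lay between −31.3 and −15 points with a median of −17.7. Most chosen windows therefore sat close to the threshold. The smaller of the 2 differences was 15 to 16 points in 527 windows, 16 to 18 in 460, 18 to 20 in 140 and 20 to 25 in 64, and no window reached 25 points in both.

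Windows on either side of the threshold looked alike. Just inside it stood a window at chr1:90349001-90350000, which read 65%, 50% and 50% in the non-differentiated, DMSO and EED inhibitor libraries. Just outside stood one at chr11:49809001-49810000, which read 53.98%, 38.98% and 37.2%. Within 1 point inside the threshold lay 527 windows, and within 1 point outside it lay 842.

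Windows that moved the other way show how often differences of this size ran in the opposite direction. By the mirrored rule, at least 15 points higher in both libraries, 192 windows were found, or 0.00948%. Taken singly, DMSO was at least 15 points lower in 6581 windows (0.325%) and higher in 2818 (0.139%), and the EED inhibitor library was lower in 19640 (0.97%) and higher in 2855 (0.141%). Of the windows that passed in one direction or the other in both libraries, 86.1% were lower. That share varied with the starting level. Under 40% in the non-differentiated library 77 windows were chosen and 130 were mirror windows. At 40 to 80% the counts were 1040 and 62, and at 80% or more 74 and 0. The rule uses the non-differentiated level too, so these counts are partly fixed in advance. Windows near the top of the scale cannot rise by 15 points, and windows near its bottom cannot fall by as much. Mirror windows had a median non-differentiated level of 34.8% against 59.4% in the chosen ones, so the 2 sets are not matched. Both differences were taken from the same non-differentiated library, so its reads enter both. No number of windows to be reached by chance was computed, because 1 library per group gives no spread between cultures to compute it from.

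**Figure D1:**
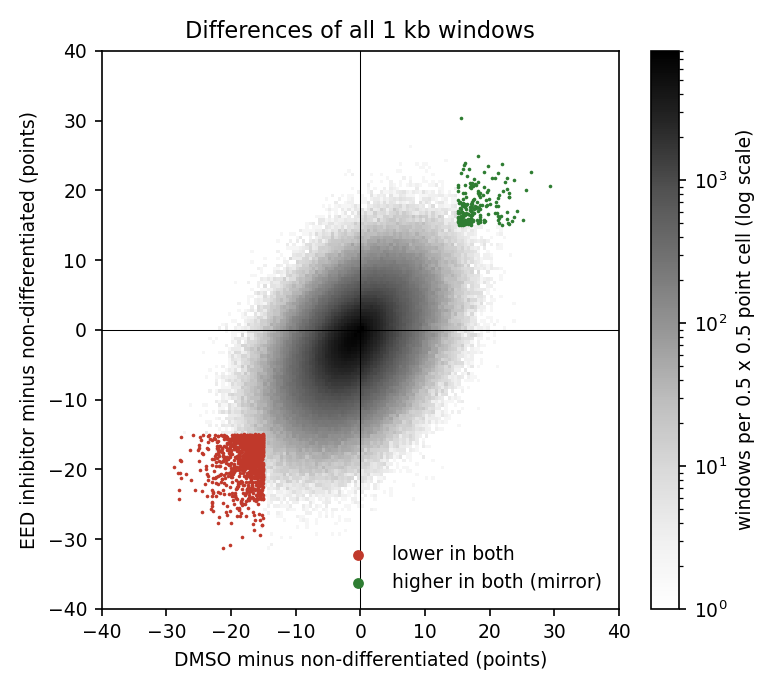
Each 1 kb window is placed by its DMSO minus non-differentiated difference (x axis, percentage points) and its EED inhibitor minus non-differentiated difference (y axis, percentage points); grey shows the number of windows per cell on a log scale, red points the 1191 windows lower in both and green points the 192 higher in both. The cloud is centred slightly below 0 on both axes, and the red and green points are its opposite ends.

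The counts of the 2 directions came closer when the shift of the whole genome was taken out. Over all windows the median difference was −0.978 points in DMSO and −1.66 points with the EED inhibitor. When these medians were subtracted, 581 windows remained lower in both (0.0287%) and 436 were higher in both (0.0215%). The share lower was then 57.1%. Since both medians were negative, centring made the rule for lower windows stricter, and 48.8% of the chosen windows passed it.

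**Figure D2:**
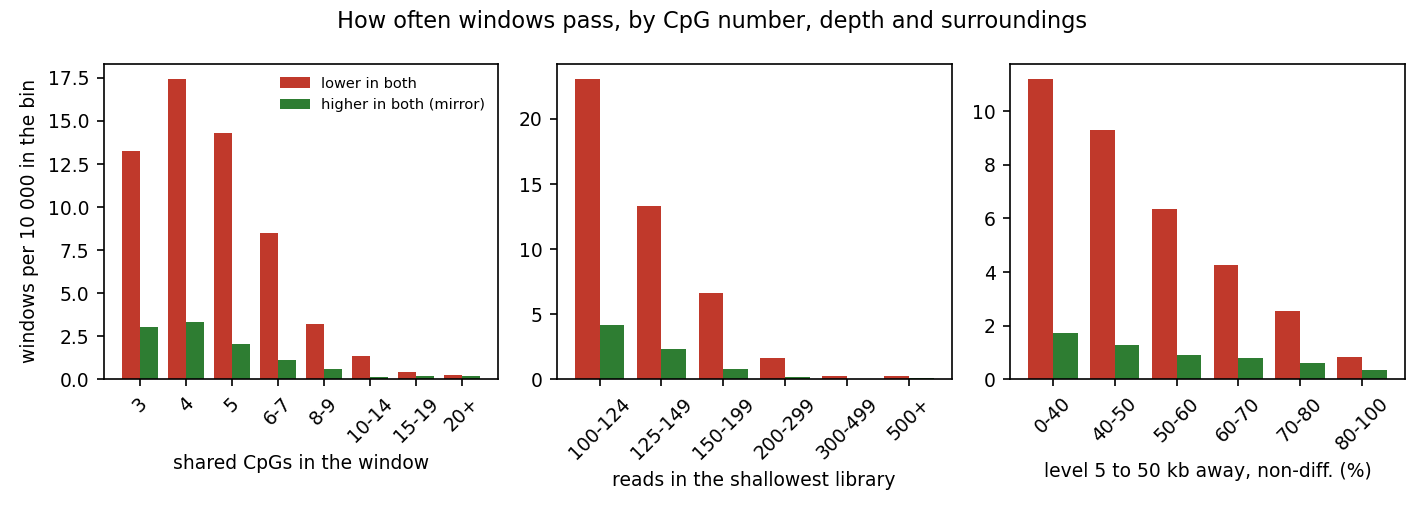
Bars give the number of windows per 10 000 windows of a bin that were lower in both (red) or higher in both (green), by the number of CpGs shared by the libraries, by the reads of the shallowest library, and by the non-differentiated level 5 to 50 kb away. Both directions were most frequent where CpGs and reads were few and where the surroundings were least methylated.

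The chosen windows were poor in CpGs and in reads. They held a median of 5 shared CpGs against 8 over all windows, and 655 of them held 3 to 5 CpGs, where 15.4 of every 10 000 windows were chosen against 0.891 where there were 10 or more. The shallowest library had a median of 130 reads in a chosen window against 224, and in 69.2% of chosen windows it had under 150 reads, against 22.3% of all. The mirror windows shared this, with 58.3% at 3 to 5 CpGs and 76.0% under 150 reads. Per 10 000 windows, 23.1 were chosen where the shallowest library had 100 to 124 reads, and 0.225 where it had 500 or more. The standard deviation of the DMSO difference over windows was 5.83 points in the former bin and 2.77 in the latter.

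Counting intervals of single windows were wide. Wilson intervals (95%) of both differentiated libraries lay below that of the non-differentiated library in 797 of the 1191 windows when every read at every CpG was counted. In the mirror direction they were apart in 118 of 192 mirror windows. The rule had already asked for a gap in these same reads, which favours intervals apart, so neither count is a check of the windows. A read pair that crosses several CpGs is counted at each of them. After division of the reads by the CpG number, the intervals were apart in 0 chosen windows and in 1 mirror window. The chosen windows had medians of 26.8 to 30.2 reads per CpG in the 3 libraries of the rule. At such depth the intervals are wide, in the UNC13C window 58.8% to 87.7% before differentiation and 36.4% to 69.3% in DMSO. The count of 0 thus largely follows from depth and cannot tell the windows apart. The mirror window, in PCBD2, had 149, 78.1 and 76.7 reads per CpG. Both kinds of interval hold counting error alone and no spread between cultures, since each group has 1 library. Reads copied by PCR and carrying no molecular identifier can stem from 1 molecule, so the intervals can be too narrow even for counting error.

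Most single windows lost the rule when the level was averaged in another way. In the sum of reads each library weighs a CpG by its own coverage, so a window with methylated and unmethylated CpGs changes its level when coverage moves between them, even if no CpG changes. With weights shared by the 4 libraries, a check chosen after CpG values had been seen, 205 of the 1191 windows (17.2%) still passed the rule. In the genome as a whole 333 windows passed (0.0164%), and 58 passed in the mirror direction (0.00286%). The median differences of the chosen windows were −11.9 points in DMSO and −13.3 points with the EED inhibitor under shared weights. In 165 of them at least 1 of the 2 differences was smaller than 5 points, and in 18 the direction was no longer lower in both. Of the mirror windows 33 of 192 (17.2%) still passed their rule, and in 45 (23.4%) at least 1 difference was smaller than 5 points, against 13.9% of the chosen windows. Centring on the medians under shared weights left 143 windows lower and 119 higher.

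**Figure D3:**
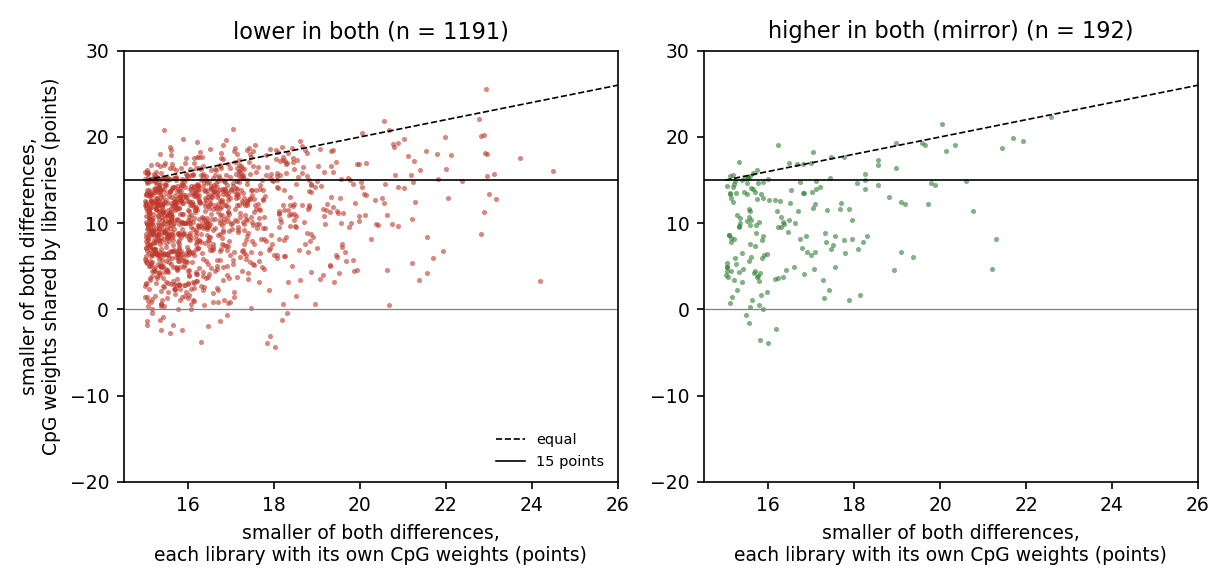
For each chosen window (left, n = 1191) and mirror window (right, n = 192) the x axis gives the smaller of its 2 differences with each library's own CpG weights and the y axis the same with weights shared by the libraries, in percentage points in the direction of the rule. The solid line marks 15 points and the dashed line equal values; most points of both panels lie under both lines.

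The 12 windows with the largest smaller difference were all far from erythroid genes of the lists used here. Of these, 8 kept the rule with shared weights and 4 did not.

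The UNC13C window read 76.1% of 155 reads before differentiation, 53.2% of 158 in DMSO, 50.9% of 163 with the EED inhibitor and 11.9% of 126 with the DNMT1 inhibitor. All 5 of its CpGs were lower in both libraries. The first CpG of the printed sequence read 65.5%, 51.7% and 40.7% in the non-differentiated, DMSO and EED inhibitor libraries, and the fourth 57.7%, 39.5% and 40.9%. The second and the third were closer to the non-differentiated values, going from 100% and 97.2% to between 83.9% and 92.9%. The CpG outside the printed stretch differed most, at 42.3%, 0% and 9.09%. Each of these values rests on 26 to 44 reads. With shared weights the window differed by −18.0 and −19.8 points.

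The SVOPL window lies in a gene whose product belongs to a family of transporter-like proteins. Of the chosen windows it had the largest smaller difference with shared weights, −25.5 points with the EED inhibitor, beside −27.9 in DMSO. It read 79.4% of 155 reads, 53.7% of 175, 56.4% of 156 and 40.1% of 147 in the non-differentiated, DMSO, EED inhibitor and DNMT1 inhibitor libraries. Its 3 CpGs at the left edge were at 93.3% to 100% in the non-differentiated library and at 89.5% or more in both others. The 8 CpGs of the printed stretch were at 61.1% to 81.3% in the non-differentiated library, at 26.7% to 38.5% in DMSO and at 25% to 56.3% with the EED inhibitor, where the first pair stood highest at 46.7% and 56.3%. The DNMT1 inhibitor library read above DMSO at 3 of them, at 46.7% to 53.3%. Only 11 to 18 reads per CpG lay behind the non-differentiated values. The level of 40.1% with the DNMT1 inhibitor was the highest of all chosen windows. Reads from different copies of a tandem unit can be placed on one another, which was not tested.

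The EBF1 window (chr5:158960001-158961000) lies in intron 6 of the gene of a B cell transcription factor. It read 41.8% of 110 reads, 18.9% of 132 and 17.1% of 129, and 4.07% of 123 with the DNMT1 inhibitor. Of its 5 CpGs, 4 were lower in both libraries and the remaining one was at 0% in each. With shared weights it differed by −20.2 and −23.4 points.

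The NTM window ranked second of all, at 57.5% of 113 reads, 29.5% of 129, 33.3% of 138 and 12.1% of 149. Its first pair of CpGs read 0% and 5.56% in the non-differentiated library and 0% to 2.17% in DMSO and with the EED inhibitor. The next pair read 75% and 80% in the non-differentiated library, 64.3% and 71.4% in DMSO, and 73.7% and 81.3% with the EED inhibitor. The last pair read 80.95% and 100%, 90% and 90%, and 43.8% and 100% in the same order. Only 2 of the 6 CpGs were lower in both libraries. The unmethylated pair had a mean of 18, 40.5 and 37.5 reads in the same 3 libraries, while the other 4 CpGs had 19.3, 12 and 15.8. With shared weights the differences were −3.24 and −5.99 points.

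CASP4, which encodes an inflammatory caspase, held a window in exon 7 (chr11:104947001-104948000) at 77.0% of 183 reads, 54.2% of 168, 54.0% of 224 and 23.1% of 195. Its differences were −11.5 and −11.3 points with shared weights. A further 6 of the 12 lay between genes. Their nearest protein-coding starts were those of TOX, TNPO1, SPRY2, SLITRK5, CDH6 and TDRD3, at distances from 139.2 kb for TNPO1 to 944.4 kb for SPRY2. The window nearest to TOX (chr8:59518001-59519000), a regulator of thymocytes, led the ranking at 69.0% of 113 reads, 44.5% of 146 and 43.0% of 149, and at 14.6% of 137 with the DNMT1 inhibitor. Among those 6, the windows near TDRD3 and CDH6 did not keep the rule with shared weights.

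**Figure D4:**
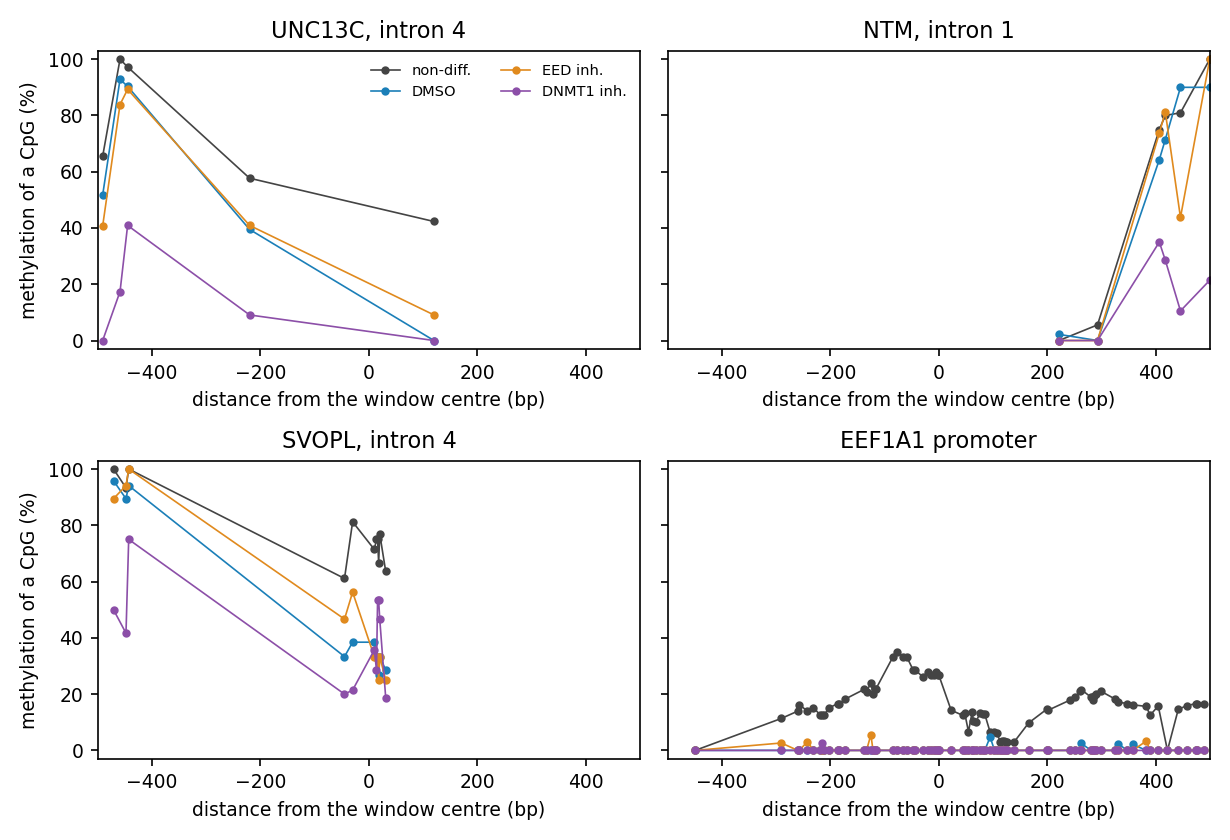
Methylation of each CpG (y axis, percent) by distance from the window centre (x axis, bp) in 4 chosen windows, with 1 line per library. All 5 CpGs of UNC13C and a group of CpGs in SVOPL are lower in DMSO and with the EED inhibitor than in the non-differentiated library, in NTM most CpGs lie near the same levels in these 3, and at the EEF1A1 promoter the non-differentiated library alone stands above 6%.

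Windows at promoters, taken from 1000 bp upstream to 500 bp downstream of a start, numbered 12 of 1191 (1.01%, Wilson 95% 0.577 to 1.75), and touched 13 genes. The share was 1.85% in all windows and 4.17% in mirror windows. Its order against all windows turned with the minimums: with at least 200 reads it was 8.57% of 105 chosen windows against 2.62% of all, and with at least 10 CpGs 10.4% of 77 against 3.56%. Mirror windows stood higher still under both, at 28.6% of 14 and 33.3% of 15. The 10 promoters with the highest rank shared 9 windows, of which 3 kept the rule with shared weights.

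The EEF1A1 promoter (chr6:73520001-73521000) had the most CpGs listed in all 4 libraries of any chosen window. EEF1A1 encodes the elongation factor that brings transfer RNA to the ribosome. Over 76 CpGs the window read 15.7% of 2542 reads before differentiation, 0.184% of 2170 in DMSO, 0.190% of 2103 with the EED inhibitor and 0.0465% of 2149 with the DNMT1 inhibitor. The non-differentiated library stands alone. Of the 76 CpGs, 74 were above 0% there, with a median of 16.2% and a maximum of 35%, and the same number were lower in both differentiated libraries. The next window towards higher coordinates read 6.13%, 0.325% and 0.132% over 63 CpGs, and the preceding one 0.437%, 0.671% and 0.201% over 12. With shared weights the differences were −15.3 points in both libraries. EEF1A1 has many processed copies elsewhere in the genome, and whether reads of such copies were placed here was not tested; the non-differentiated library had 33.4 reads per CpG in this window and the other 3 had 27.7 to 28.6.

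At the SCN7A promoter, of a sodium channel gene, the level was 54.4% of 114 reads, 30.4% of 148, 32.3% of 155 and 6.87% of 131 in the non-differentiated, DMSO, EED inhibitor and DNMT1 inhibitor libraries. It differed by −18.9 and −17.9 points with shared weights. The DSCAML1 promoter, of a neuronal adhesion gene, read 37.5% of 120 reads, 12.5% of 104, 20.6% of 141 and 7.63% of 118. All 8 of its measured CpGs were lower in both libraries, but the reference window has 85 CpGs. These 8 lie close together at the left edge of the window, with 14 to 16 reads each in the non-differentiated library. The same read pairs can be counted at several of them, so they are not 8 separate measurements. With reads divided by the CpG number, the intervals of the non-differentiated library and of both others overlapped. Its differences with shared weights were −25.0 and −16.9 points.

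The other 6 promoter windows did not keep the rule. The window shared by NOP10, of the complex that guides RNA pseudouridylation, and NUTM1, a gene expressed mainly in testis, read 58.2% of 858 reads, 39.98% of 913 and 38.6% of 957 over 37 CpGs. Its 21 CpGs under 50% had a mean of 15.95 reads in the non-differentiated library against 25.8 in DMSO and 27.2 with the EED inhibitor. Its 16 CpGs at 50% or more had 32.7 reads against 23.2 and 24.1. With shared weights the differences were 1.25 and −0.113 points. At EEA1, an early endosome tether, they were −1.98 and −2.09 points, and at RPUSD2, a pseudouridine synthase family gene, −4.37 and −3.47. The values were −2.03 and −8.32 for CAPN10, a calpain protease, and −5.17 and −7.48 for NHEJ1, a DNA end-joining factor. SERPINA11, of the serpin family, had −9.31 and −13.4.

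Dense windows were few, with 5 chosen windows at 20 or more CpGs against 4 mirror windows. Besides NOP10, CAPN10 and EEF1A1 these were the chromosome 22 window and one nearest to TLE1 on chromosome 9 with 23 CpGs. The chromosome 22 window read 64.0% of 1181 reads, 43.7% of 1373, 46.7% of 1192 and 24.0% of 1335 with the DNMT1 inhibitor. It lies 46.3 kb from the start of MORC2. Of its 54 CpGs, 37 were lower in both libraries. With shared weights its differences were −18.1 points in DMSO and −13.5 with the EED inhibitor, so it missed the rule only in the latter. The 2 windows before it read 38.8% and 33.2% in the non-differentiated library, 31.3% and 27.1% in DMSO and 32.5% and 31.3% with the EED inhibitor. The 3 windows after it read 88.0% to 95.6% in these 3 libraries. In the TLE1 window the shared-weight differences were −7.47 and −6.42 points.

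Most chosen windows lay outside genes. Intergenic windows made up 66.2% against 49.9% of all windows, introns 30.3% against 39.9%, and exons 2.43% against 8.29%. Gene bodies held 33.4% (Wilson 95% 30.8 to 36.1) against 49.6%. With at least 200 reads they held 45.7% of 105 chosen windows (Wilson 95% 36.5 to 55.2), an interval that holds the 53.55% of all windows. With at least 10 CpGs they held 41.6% of 77 (31.2 to 52.7), below the 56.0% of all. The median distance to a protein-coding start was 192325 bp against 72005 bp. GC content had a median of 38.2% against 41.3%. The strict CpG islands computed from the sequence (at least 500 bp, 55% GC and an observed over expected ratio of 0.65) overlapped 14 chosen windows, 1.18% against 3.21%. Of the mirror windows 56.8% were intergenic (Wilson 95% 49.7 to 63.6), an interval that holds the share of all windows and not that of the chosen ones, and 6.25% overlapped such islands.

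Among 19111 protein-coding genes, 434 (2.27%) had a chosen window in the gene or within 10 kb, and 360 had one in the gene body. In 9 genes there were at least 3. ENSG00000285713 had 4 among 584 windows, and CNTNAP2, a neurexin family gene of 2305 kb, had 4 among 1546. PRR16, PCSK5, RYR2, ADGRL3, PCDH9, CTNNA2 and RBFOX1 had 3 each, among 127 windows for PRR16 and 2287 for RBFOX1. PCSK5 encodes a proprotein convertase, RYR2 the cardiac calcium release channel, ADGRL3 a latrophilin receptor, PCDH9 a protocadherin, CTNNA2 a neural catenin and RBFOX1 a splicing factor. All 9 are at least 223 kb long. At the genome-wide share they would hold from 0.0747 chosen windows in PRR16 to 1.35 in RBFOX1, and these genes were taken because their counts were the highest of 19111. By chromosome the count per 10 000 windows ran from 0.77 on chromosome 19 to 9.24 on chromosome 13.

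The surroundings of the chosen windows were less methylated than most of the genome. Between 5 and 50 kb away the non-differentiated level had a median of 46.5% against 56.5% around all windows, and 47.7% around mirror windows. Those surroundings differed by −0.999 points in DMSO and −2.47 with the EED inhibitor in the median, against −1.08 and −1.93 around all windows. Where the surroundings were under 40%, 11.2 per 10 000 windows were chosen and 1.74 were mirror windows. Where they were at 80% or more, the counts were 0.816 and 0.350.

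Windows next to the chosen ones differed far less than the chosen ones did. Among 1632 measured windows next to a chosen one, the median difference was −0.960 points in DMSO (95% interval of the median −1.24 to −0.694) and −2.18 with the EED inhibitor (−2.52 to −1.80). The interval in DMSO holds the median of all windows, −0.978, and the interval with the EED inhibitor lies below its median of −1.66. At a distance of 10 windows these were −0.851 and −2.18. Neighbours were at least 5 points lower in both libraries in 11.3%, against 7.85% of all windows, and 10.5% at 10 windows. No chosen window was next to another or 2 windows from one. At the genome-wide share of 0.0588% few of 1632 windows would be chosen, so this count says little about isolation. For the 205 windows that kept the rule with shared weights, the adjacent windows had medians of −0.983 and −2.11 points.

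**Figure D5:**
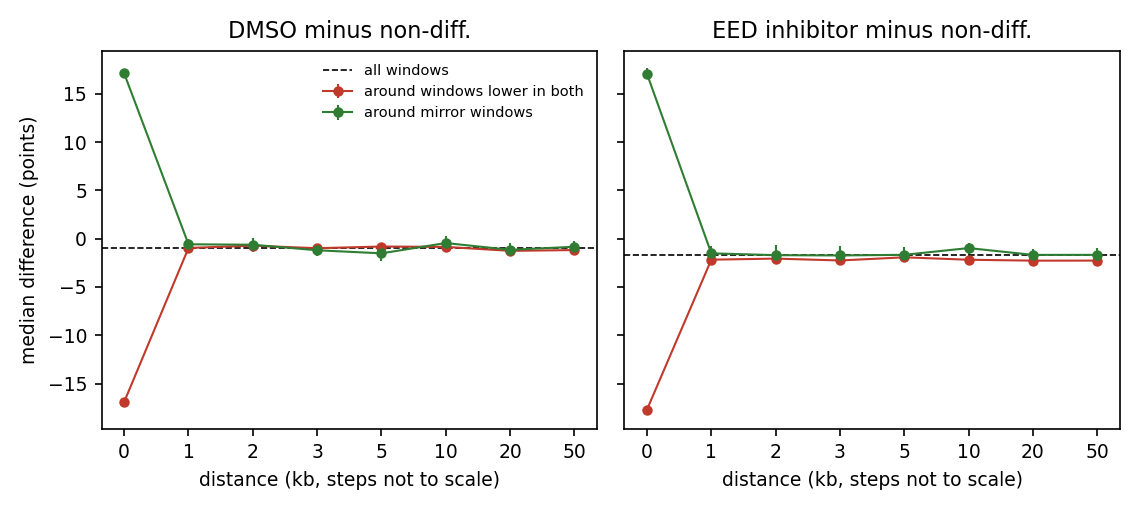
Median difference from the non-differentiated library (y axis, percentage points) in DMSO and with the EED inhibitor, at the chosen windows (distance 0) and at windows 1 to 50 kb away (x axis, steps not to scale), with the same for mirror windows; bars are 95% intervals of the median and the dashed line is the median of all windows. From 1 kb on, the medians lie within a few points of the dashed line.

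Few of the windows came back on another grid. With window starts moved by 500 bp, 1153 windows passed, and 139 of the 1191 (11.7%) overlapped one of them, as did 140 of the 1153 (12.1%). Only 88 chosen windows lay inside a 2 kb window that passed.

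Within the chosen windows most CpGs followed the sum, as the rule favours. Of 7057 shared CpGs, 4820 (68.3%) were lower in both libraries. Every CpG was lower in both in 190 windows (15.95%).

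The DNMT1 inhibitor library did not enter the rule except for its depth. All 1191 windows read lower there than in DMSO, as did 2020053 of all 2024509 windows. The median was 9.72% in the chosen windows against 13.3% in all. Its value depended on which library was used to match starting levels. Among windows at 40 to 60% in the non-differentiated library, chosen windows read 7.69% with the DNMT1 inhibitor, all windows 10.4% and mirror windows 13.9%. Among windows at 40 to 60% in DMSO, chosen windows read 11.9%, all windows 10.7% and mirror windows 8.44%. In these classes the chosen windows lay below all windows when matched on the non-differentiated level and above them when matched on the DMSO level, and the mirror windows did the reverse. At 60 to 80% in DMSO the chosen windows lay below, at 15.9% against 17.5%.

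No chosen window lay at a gene of the 5 erythroid lists. These hold 102 genes for globins, erythroid transcription factors, membrane and cytoskeleton, heme and iron, and enzymes, receptors and maturation. The gene bodies with 10 kb on either side cover 8208 windows, of which 0 were chosen (Wilson 95% upper bound 0.322% of the 1191) and 0 were mirror windows. At the genome-wide share of 0.0588%, that many windows would hold 4.83 chosen ones. By class of non-differentiated level and the share of each class, the 2666 erythroid windows at 40 to 80% would hold 2.74, the 4517 at 80% or more 0.634 and the 1025 under 40% 0.163. Of those at 40 to 80%, the 442 with under 150 reads in the shallowest library would hold 1.59. The erythroid windows were more methylated than most, with a median non-differentiated level of 83.8%. At 80% or more, 1.40 of every 10 000 windows were chosen, against 10.3 at 40 to 80%. The median difference of these windows was −0.576 points in DMSO and −0.553 with the EED inhibitor. At least 10 points lower in both were 21 of them (0.256%), against 0.806% of all windows, shares that were not matched for starting level.

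By list, the medians in DMSO and with the EED inhibitor were −0.142 and −0.685 points over 273 globin windows, and −0.744 and −0.800 over 3408 windows of transcription factors. They were −0.375 and −0.198 over 1936 windows of membrane and cytoskeleton genes, −0.346 and −0.194 over 811 of heme and iron genes, and −0.675 and −0.594 over 1780 of enzymes, receptors and maturation genes. All 10 medians were nearer to 0 than those of all windows.

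The erythroid window nearest to the rule lay in exon 2 of CAT, the catalase gene, at chr11:34449001-34450000. It read 94.3% of 157 reads, 80% of 160 and 78.9% of 180, and 16.5% of 176 with the DNMT1 inhibitor. Next came windows in intron 4 of ETV6 and intron 6 of SOX6, both transcription factor genes, at 85.2%, 70.3% and 72.7% and at 58.5%, 45.3% and 46.5%. All 3 fell short in at least 1 library.

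Widening the lists to 50 kb brought in 2 chosen windows among 14426, where the genome-wide share, not matched for starting level, gives 8.49. One was the chromosome 22 window, in the range of OSBP2, an oxysterol-binding protein gene. The other (chr1:247915001-247916000) was near TRIM58, a ubiquitin ligase gene of erythroid maturation, and 4.8 kb from the start of the olfactory receptor gene OR2T8. It read 69.1% of 149 reads, 53.1% of 145 and 50.3% of 175, and differed by −4.90 and −4.00 points with shared weights. On the grid moved by 500 bp, a window in an intron of OSBP2 passed (chr22:30754501-30755500), at 65.0% of 157 reads, 49.1% of 114 and 46.8% of 154.

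The globin loci and the erythroid control regions held no chosen and no mirror window, but their 465 windows would hold only 0.274 chosen ones at the genome-wide share. Over 55 windows of the beta-globin cluster and its control region, the level was 78.2%, 76.9%, 77.4% and 20.8% in the non-differentiated, DMSO, EED inhibitor and DNMT1 inhibitor libraries. Over 92 windows of the alpha-globin cluster and its upstream enhancers it was 77.2%, 76.6%, 76.8% and 20.6%. BCL11A intron 2, which holds the erythroid enhancer of this repressor of fetal globin, read 86.0%, 84.8%, 83.9% and 21.6% over 74 windows. The interval between MYB and HBS1L, another known fetal haemoglobin locus, read 79.6%, 78.4%, 77.7% and 26.7% over 244. The window of these loci with the largest smaller difference in the beta-globin cluster held exon 3 of HBB, the adult beta-globin gene, at 20.2% of 104 reads, 7.41% of 108, 10.2% of 128 and 1.59% of 126. It had 5 CpGs and was picked as the extreme of the 55 windows. The HBB promoter, over 10 CpGs, was not lower in both libraries. It read 15.3%, 15.2%, 21.5% and 2.49% in the same order.

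The methylation of marker promoters was read as a check of the cell type, though methylation is not expression. In the non-differentiated library 3 of the 8 erythroid marker promoters were under 10%, namely ANK1 at 0.476%, KLF1 at 1.55% and EPB42 at 3.99%, and HBB was at 15.3%. SLC4A1, the band 3 anion exchanger, was at 90.7%, so the list is not uniformly unmethylated. The T cell markers CD3D, CD3E, CD2 and CD5 read 51.8% to 71.8% there. Low levels were not limited to the erythroid list: of the stem cell markers MEIS1 read 5.14%, HOXA9 9.22% and HLF 20.8%, of the myeloid markers CD14 18.3%, MPO 25% and CSF1R 36.4%, and MS4A1 of the B cell list 35.2%. These promoters thus do not set the erythroid list apart from the others. A chosen window lay in intron 1 of MS4A1, the CD20 gene, the only one at the 4 B cell markers. It read 61.1%, 44.6% and 45.5%, and differed by −10.5 and −9.74 points with shared weights. No chosen window lay within 10 kb of the T cell, myeloid, megakaryocyte, stem cell or erythroid markers. Their 1111 windows would hold 0.654 chosen ones at the genome-wide share, and those of the B cell markers 0.0594.

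Motifs of blood transcription factors were searched on both strands of the 1 kb windows. The GATA motif AGATAA was present in 59.2% of chosen windows (Wilson 95% 56.4 to 62.0), in 50.9% of all and in 61.5% of mirror windows (54.4 to 68.1). The intervals of chosen and of mirror windows thus lay above the share of all windows. With at least 200 reads it was present in 53.3% of 105 chosen windows (Wilson 95% 43.8 to 62.6) against 45.9% of all, and with at least 10 CpGs in 42.9% of 77 (32.4 to 54.0) against 41.2%, so both intervals hold the share of all windows. CCNCNCCC, of the KLF type, was present in 36.6% of chosen and 46.9% of all windows, an order that turned among windows with at least 10 CpGs, at 68.8% of 77 chosen windows (Wilson 95% 57.8 to 78.1) against 63.9%. The other letters searched were TGANTCA (AP-1 and NF-E2 type, 29.4% against 27.6%), GAGGAAGT (PU.1 type, 5.12% against 4.95%) and TGTGGT (RUNX type, 48.4% against 52.5%). The composite of an E-box part and GATA, which contains AGATAA, was found in 1.76% against 1.53%. AGATAA is rich in A and T and CCNCNCCC in C, and the chosen windows were lower in GC content than all windows; its part in these shares was not tested.

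Depth across the libraries was even. They listed 24689329 to 24971588 CpGs at a mean of 27.2 to 29.7 reads, and 22761441 autosomal CpGs (91.6%) were in all 4. In the chosen windows the median number of reads per CpG was 26.8, 28 and 30.2 in the non-differentiated, DMSO and EED inhibitor libraries, against 27.6, 28.8 and 30.8 over all windows.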

How the data were processed

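Per the file headers, the tables deposited by the authors hold 1 line per CpG, with a read count (coverage) and the C and T shares in percent. The deposited tables merge both strands and list CpGs with at least 10 reads. Per the submitters' processing notes, Trim Galore 0.6.7, cutadapt 4.1, Bismark, Bowtie2 2.1.0, methylKit and hg38 were used; handling of duplicates is not given in the sources used here. Uneven retention of duplicates or low-coverage CpGs can change which CpGs weigh most in a window. Methylated reads were recovered as coverage times percent, rounded. Summed over CpGs listed in all 4 libraries, they gave the level of each 1 kb window, with 95% Wilson intervals. With 1 library per group no test was made. Genes came from GENCODE 44, with MANE Select starts for 18191 of 19111 autosomal protein-coding genes, and 99.99% of shared positions fell on a CpG of hg38. Python 3.11.15, NumPy 2.4.6, pandas 2.3.3 and SciPy 1.17.1 were used, and the counting was tested on simulated data. The simulated windows had far more reads, even coverage and larger planted differences than the rule asks for. That test thus covers the arithmetic alone and not the effects of depth or CpG weights. The windows, gene lists, loci and motifs were chosen with earlier results of these data known. Named were the 12 windows with the largest smaller difference, the 10 highest-ranked promoters, genes with most chosen windows, erythroid list genes, 4 loci and dense windows; UNC13C, SVOPL, NTM and chromosome 22 were picked for printing after their values were seen. One of the 12 windows is not reported here. Alternatives varied thresholds, minimums, grid, weighting, centring and intervals.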

Additional observations from a re-analysis of the deposited data

How the results depend on the processing

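Lower and higher windows are given in this order for each alternative, against 1191 and 192. A threshold of 10 points gave 16273 and 3571, 20 points gave 64 and 11, and 25 points gave 0 and 0. Minimums of 50 and 200 reads gave 2855 and 684, and 105 and 14. At least 5 CpGs left 861 and 127, and at least 10 left 77 and 15. Windows of 2 kb gave 253 and 33, unweighted means 382 and 80, and centring on the medians 581 and 436. Requiring intervals apart left 797 and 118 on summed reads, and 0 and 1 on reads divided by the CpG number. Weights shared by the libraries, an alternative chosen after seeing the data, gave 333 and 58, and 143 and 119 with centring as well. The share lower was 80.7% to 88.5% under the threshold, minimum, grid and weighting alternatives that left any window, and 57.1% and 54.6% in the 2 centred ones. A grid moved by 500 bp, a CpG minimum of 20 reads, a limit of 100 reads per CpG, no limit between DMSO and the EED inhibitor, and leaving out chromosome 18 and part of chromosome 10 kept both counts within 1.5 times. For the other values, 15 moved beyond their counting interval and 13 did not, and the median differences next to chosen windows stayed below 0. The share at promoters, below that of all windows in the rule used, was above it with 200 reads (8.57% against 2.62%) and with 10 CpGs (10.4% against 3.56%), and the share with CCNCNCCC with 10 CpGs (68.8% against 63.9%). The 25-point and per-CpG interval settings left no lower windows to describe. No paired analysis was possible because each group has 1 library and the labels give no replicate numbers. Leaving out replicates was not possible for the same reason. Depth limits statements on single windows, since most chosen ones had under 150 reads in a library.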

Other observations

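Among the windows higher in both libraries, 4 held 20 or more CpGs. The window in intron 2 of PCBD2 read 16.3%, 33.8% and 37.9% in the non-differentiated, DMSO and EED inhibitor libraries, on 3732, 1952 and 1918 reads. Its differences were 7.47 and 10.8 points with shared CpG weights. It had 149, 78.1 and 76.7 reads per CpG in these libraries, against medians of 27.6, 28.8 and 30.8 over all windows. Whether reads from elsewhere in the genome were placed here was not tested. At the ANKRD26 promoter the levels were 43.8%, 59.5% and 60%, with differences of 0.536 and 0.670 points under shared weights. GXYLT1 and EGLN2 had 10.6 and 10.4 points and 3.98 and 3.45 points under shared weights. None of these 4 kept the mirrored rule.

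Of the 205 chosen windows that kept the rule with shared weights, 78 (38.0%) lay in gene bodies, 3 at promoters and 0 at genes of the erythroid lists, where all windows have 49.6%, 1.85% and 0.405%. Their shallowest library had under 150 reads in 159 (77.6%). Gene windows were also ranked under shared weights by the smaller of their 2 differences. After SVOPL came windows in introns of MCC (−22.1 and −22.8 points), CPS1 (−21.3 and −20.5), EBF1, KIAA0825 (−19.97 and −25.4), TMEM232 (−19.7 and −20.2) and ANTXR1 (−19.7 and −21.4).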
